A study of Homo sapiens with 8 samples.

Results

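MDM2, MDM4, CDKN1A, GDF15, SESN1, RRM2B, ZMAT3, FDXR and TP53I3 are 9 genes of the p53 pathway. They were chosen by name and not by a cut on their values, though with earlier results of these data known. Each symbol has 1 row among the 60332 genes of the expression table. All 9 were among the 15175 genes tested, those whose mean over all 8 libraries reached 1 FPKM (FPKM is a read number per length of transcript and size of library), and GDF15 reached that mean through the libraries in which it was high. The cells were those of RD-ES and of SK-N-MC, both established Ewing sarcoma lines, and their RNA was sequenced. In each line, 2 libraries came from eKD2 cells and 2 from control cells. In eKD2 cells dCas9-KRAB, a non-cutting Cas9 fused to a repressor domain, was delivered with a guide RNA that binds next to the GGAA repeat enhancer of LOXHD1. The control cells of both lines are labelled as carrying dCas9-KRAB without a guide, whereas the study elsewhere calls them parental. All were infected pools and not single clones, infected at a multiplicity of 10, kept in 1 µg/ml puromycin over 3 days and harvested no later than passage 5 after that. The study calls its replicates biological duplicates, and nothing else says how they were kept apart, so the spread between them may be partly technical.

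p53 is a transcription factor that is activated by DNA damage and other stress, binds a response element made of a pair of similar half-sites, and turns on genes that halt the cell cycle, repair DNA, adjust metabolism or kill the cell. MDM2, a ubiquitin ligase that marks p53 for degradation, is itself a p53 target and so closes a feedback loop, and its relative MDM4 binds p53 and blocks its activation domain. In bulk RNA, fewer expressing cells and less RNA per cell cannot be told apart.

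LOXHD1, the gene whose enhancer was targeted, was at 21.4 and 21.2 FPKM in the RD-ES control libraries and 1.04 and 1.02 in the eKD2 ones, and at 159 and 169 in the control and 11.0 and 12.0 in the eKD2 libraries of SK-N-MC. On the log2(FPKM + 1) scale it fell by 3.46 ± 0.08 (SE) in RD-ES, and for SK-N-MC it fell by 3.73 ± 0.08 (limma adjusted p of 1.1e-04 and 3.7e-05). Reads per library are not given with the values. Steps in the low values gave rough depths of 6.68 to 14.8 M reads (M, mega) for RD-ES and 11.8 to 26.2 M for SK-N-MC. RD-ES eKD2 replicate 1 was the shallowest. The 5 Ewing sarcoma markers CD99, NKX2-2, NR0B1, FLI1 and STEAP1 summed to between 384 and 699 FPKM in every library. CD99 was the largest part of the sum (mean 576 FPKM in RD-ES control and 208.5 in SK-N-MC control). NR0B1 was at a mean of 3.08 in RD-ES control against 53.1 in SK-N-MC control. Of markers of other cell types, CD3E and KRT5 were at 0 throughout, whereas SK-N-MC control had leukocyte markers (PTPRC, CD3E, CD68) summing to 22.8 to 23.2 FPKM and fibroblast markers (DCN, PDGFRA) summing to 134 to 139 FPKM, against 1.18 to 1.87 and 1.29 to 2.49 in RD-ES control. The SK-N-MC sums were mostly PTPRC (mean 22.0 FPKM in SK-N-MC control, against 0.015 in RD-ES control) and DCN (136 against 0.995). The means of CD68 (0.96 against 1.51) and PDGFRA (0.32 against 0.89) were lower in SK-N-MC control. The part of these markers in the results below was not tested.

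The closest matches to the p53 response element near these genes are shown first. They were found by their letters alone and need not be the elements that p53 binds. Within 3 kb of the annotated 5′ end of each gene on GRCh37, the best match to the p53 response element was taken, with fewest mismatches to the consensus and up to 10 bases between its half-sites. The half-site reads the same on both strands. The C and the G at the core of each half-site had to be present. Each match is printed from the plus strand, with the half-sites in capitals and the bases between them in lower case.
MDM2: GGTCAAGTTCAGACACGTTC
MDM4: GTGCTTGTTTgaaaATGCTTGTTT
CDKN1A: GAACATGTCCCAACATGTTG
GDF15: AGACCTGCCCGGACATGTCC
SESN1: TGACTTGCGTgggaaGGACTAGTCC
ZMAT3: AGGCATGTCTGGACTTGTTT
FDXR: GGGCAAGCCCgctcctgcccGGGCCCGCCC
TP53I3: GAGCATGGGTGGGCAAGCTG

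The ZMAT3 match had 0 mismatches and lay in an intron, at chr3:178787976-178787995, 2008 bases after the 5′ end of the gene. Of all 19810 protein-coding genes scanned in the same way, 0.621% held a match with 0 mismatches. The GDF15 match, at chr19:18484757-18484776, had 1 mismatch and lay upstream, at position -784 from the 5′ end. RRM2B also held a match with 1 mismatch, in an intron 2102 bases after its 5′ end, and 6.65% of all genes held one with at most 1. The matches of MDM2 (intron, chr12:69202703-69202722), MDM4 (intron, chr1:204486061-204486084), CDKN1A (at the start of its outermost transcript, chr6:36644226-36644245), SESN1 (upstream at -877, chr6:109416902-109416926) and FDXR (exon, chr17:72869121-72869150) had 2 mismatches, as 38.1% of all genes had at most. The TP53I3 match (exon, chr2:24308035-24308054) had 3, and 89.3% of all genes had at most 3. A match is a description of the letters in this window and not a measured site of binding.

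The levels of the 9 genes were far apart. MDM2 was the highest in every group, above 91.8% to 94.4% of the genes tested, and MDM4 was above 75.4% to 79.7% of them. CDKN1A, which encodes the cyclin-dependent kinase inhibitor p21, was above only 13.0% to 18.2%. In RD-ES control the order was MDM2, MDM4, RRM2B, FDXR, SESN1, TP53I3, ZMAT3, CDKN1A and GDF15, and of these neighbours only FDXR and SESN1 overlapped in their libraries. In SK-N-MC control the order was MDM2, MDM4, RRM2B, SESN1, FDXR, ZMAT3, TP53I3, CDKN1A and GDF15, and the libraries of MDM4 and RRM2B, of FDXR and ZMAT3 and of TP53I3 and CDKN1A overlapped. In SK-N-MC eKD2 both RRM2B libraries lay above both of MDM4.

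**Figure D1:**
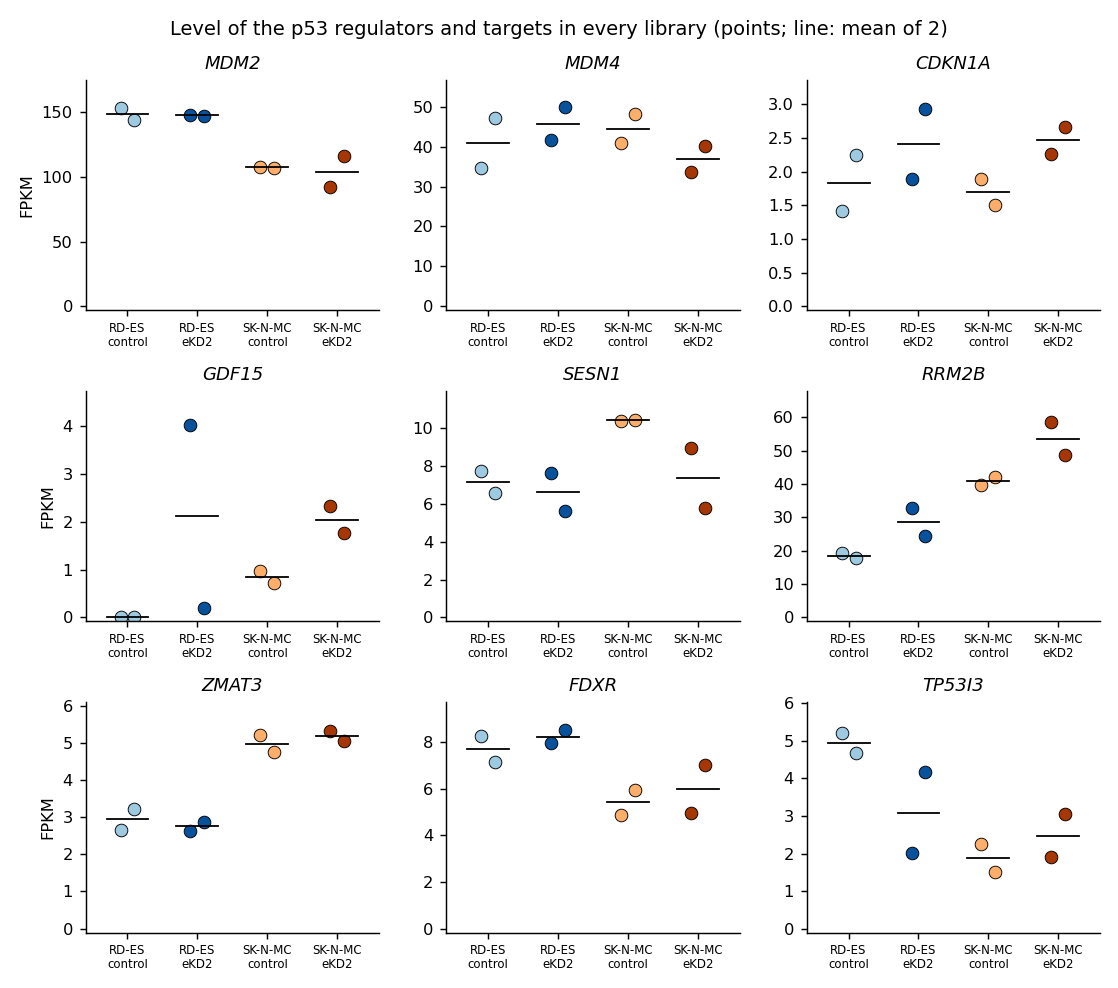
FPKM of each of the 9 genes (y axis, starting at 0) in every library, with the 4 groups on the x axis, a point for each library and a line at the mean of the 2. RRM2B and GDF15 are the panels in which both eKD2 points lie above both control points in each line, and MDM2 and ZMAT3 are panels in which the control points of the lines lie apart while those of eKD2 and control overlap within each line.

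None of the 9 genes passed the test for a change with enhancer silencing in either line (limma on log2(FPKM + 1), Benjamini-Hochberg adjusted p under 0.05 over all genes tested). In RD-ES 0 of 9 were called, where 0.343% of all genes tested were, and 1 of 9 had an unadjusted p under 0.05, where 12.3% did. In SK-N-MC 0 of 9 were called, where 0.323% of all genes were, and 0 of 9 had an unadjusted p under 0.05, where 13% did. For the difference of the change between the lines 0 of 9 were called, against 0.244% of all genes, and 0 of 9 had an unadjusted p under 0.05, against 13.5%. The median change of the 9 was 0.09 in RD-ES, with 0.11 in SK-N-MC, on the log2 scale, beside 0.03 and -0.005 for all genes tested. The test is a coarse one, with 2 libraries a group: in simulated data of RD-ES it called 84 of 100 genes changed by 2 on the log2 scale and 39 of 100 changed by 1. With 2 against 2 libraries the smallest two-sided p of an exact permutation test is 0.333, so every p here is that of limma, in which genes and groups pool their spread.

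RRM2B and GDF15 were the genes in which both eKD2 libraries lay above both control libraries in each line, a pattern held by 5.64% of all genes tested. GDF15 passed the filter on the mean through libraries in which it was high. Its place in this pattern, and in the counts of genes above control, is therefore partly set by the filter. In RD-ES its gap was that of 0.207 FPKM in the lower eKD2 library against 0 in control. In RD-ES 2 of 9 genes had both eKD2 libraries above (24.2% of all genes) and 1 of 9 below (15.1%). In SK-N-MC 3 of 9 lay above (22.2%) and 2 of 9 below (25.1%). The shares of all genes are given beside these counts because, with 2 libraries a group, such gaps are common.

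RRM2B, the p53-inducible small subunit of ribonucleotide reductase, which supplies nucleotides for DNA repair, had the smallest p-values of the 9 with silencing. It was at 19.3 and 17.7 FPKM in the RD-ES control libraries and 32.9 and 24.5 in the eKD2 ones, and at 39.7 and 42.0 in the control and 58.6 and 48.6 in the eKD2 libraries of SK-N-MC. The eKD2 libraries of both lines were the higher ones, without overlap. On the log2 scale the difference was 0.59 ± 0.16 (SE) in RD-ES, a ratio of 1.51 on the FPKM + 1 scale (unadjusted p = 0.0092, adjusted p = 0.24), and 0.38 ± 0.16 in SK-N-MC (unadjusted p = 0.053, adjusted p = 0.39). Over the alternatives tried, the adjusted p ranged in RD-ES from 0.13 to 0.55, and for SK-N-MC from 0.25 to 0.73. Without RD-ES eKD2 replicate 1, the shallowest library, the RD-ES difference was 0.39, and without RD-ES eKD2 replicate 2 it was 0.80. The difference between the lines was -0.22, with a 95% interval from -0.76 to 0.33.

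GDF15, a secreted stress cytokine, was listed at 0 in both RD-ES control libraries, at 4.03 and 0.207 FPKM in RD-ES eKD2, at 0.969 and 0.726 in SK-N-MC control, and at 2.32 and 1.76 in SK-N-MC eKD2. Its RD-ES eKD2 libraries were far apart, and the higher one was replicate 1, the shallowest library, which also held the epithelial marker CDH1 at 3.50 FPKM where no other library exceeded 0.168; the part of either in this value was not tested. The limma test for RD-ES gave an adjusted p of 0.47. The difference of log2(FPKM + 1) was 2.33 with RD-ES eKD2 replicate 2 left out and 0.27 with replicate 1 left out, so its size rested on 1 library. No ratio of FPKM is given for RD-ES, because its control libraries were listed at 0. In SK-N-MC the mean was 0.848 ± 0.17 (SD, n = 2) in control and 2.04 ± 0.40 in eKD2, a log2 difference of 0.72 ± 0.62 (adjusted p = 0.70) whose SE includes the spread of the RD-ES libraries.

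The 2 negative regulators did not change past the threshold. MDM2 was at 153 and 144 FPKM in the RD-ES control libraries and 148 and 147 in the eKD2 ones, and at 108 and 107 in the control and 92.2 and 116 in the eKD2 libraries of SK-N-MC. The eKD2 and control libraries overlapped in both lines, and the 95% interval of the log2 difference ran in RD-ES from -0.28 to 0.26, and for SK-N-MC from -0.32 to 0.21. MDM4 was at 34.7 and 47.2 FPKM in the RD-ES control libraries and 41.7 and 49.9 in the eKD2 ones, and at 40.8 and 48.3 in the control and 33.7 and 40.2 in the eKD2 libraries of SK-N-MC. Its SK-N-MC eKD2 libraries lay just below the control ones, with a log2 difference of -0.26 ± 0.18 (adjusted p = 0.61), while those of RD-ES overlapped, with 0.17 ± 0.18 (adjusted p = 0.75). MDM2 shares 439 exon bases with AC025423.2, a pseudogene on the same strand that was given 38.3 to 64.0 FPKM, so its level is uncertain by what counting assigned to each.

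CDKN1A, the main effector of the p53 cell cycle arrest, stayed low in every group. It was at 1.41 and 2.25 FPKM in the RD-ES control libraries and 1.89 and 2.93 in the eKD2 ones, and at 1.89 and 1.51 in the control and 2.26 and 2.67 in the eKD2 libraries of SK-N-MC. The SK-N-MC eKD2 libraries lay above the control ones and the RD-ES libraries overlapped. The log2 difference was 0.27 ± 0.23 in RD-ES (adjusted p = 0.68) and 0.36 ± 0.23 in SK-N-MC (adjusted p = 0.56), with intervals from -0.30 to 0.83 and from -0.20 to 0.93.

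SESN1, a sestrin that restrains mTORC1 under stress, was at 7.72 and 6.56 FPKM in the RD-ES control libraries and 7.62 and 5.63 in the eKD2 ones, and at 10.4 and 10.4 in the control and 8.94 and 5.80 in the eKD2 libraries of SK-N-MC. Both SK-N-MC eKD2 libraries were the lower ones, with a log2 difference of -0.47 ± 0.21 (unadjusted p = 0.070, adjusted p = 0.43), and the RD-ES libraries overlapped. TP53I3, a quinone oxidoreductase, was at 5.21 and 4.68 FPKM in the RD-ES control libraries and 2.01 and 4.16 in the eKD2 ones, and at 2.24 and 1.51 in the control and 1.90 and 3.05 in the eKD2 libraries of SK-N-MC. Its RD-ES eKD2 libraries were below the control ones, with a log2 difference of -0.59 ± 0.31 (adjusted p = 0.50). The RD-ES difference was -0.20 without eKD2 replicate 1, the shallowest library, and -0.98 without eKD2 replicate 2. The SK-N-MC libraries of TP53I3 overlapped, with 0.26 ± 0.31 (adjusted p = 0.79). TP53I3 shares 80 exon bases with FAM228B on the opposite strand, which was at 2.72 and 2.82 FPKM in the RD-ES control libraries, at 4.84 and 3.32 in the eKD2 ones, and at 11.5 to 20.4 in SK-N-MC, and the library kit did not keep the strand.

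ZMAT3 and FDXR overlapped between eKD2 and control in both lines. ZMAT3, a zinc finger protein that binds RNA, was at 2.65 and 3.22 FPKM in the RD-ES control libraries and 2.62 and 2.88 in the eKD2 ones, and at 5.20 and 4.76 in the control and 5.31 and 5.03 in the eKD2 libraries of SK-N-MC. FDXR, the reductase that passes electrons to mitochondrial ferredoxin, was at 8.26 and 7.15 FPKM in the RD-ES control libraries and 7.96 and 8.51 in the eKD2 ones, and at 4.89 and 5.95 in the control and 4.95 and 7.03 in the eKD2 libraries of SK-N-MC. The log2 difference of ZMAT3 was -0.07 ± 0.12 in RD-ES, with 0.05 ± 0.12 in SK-N-MC, and that of FDXR was 0.09 ± 0.17 and 0.11 ± 0.17.

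**Figure D2:**
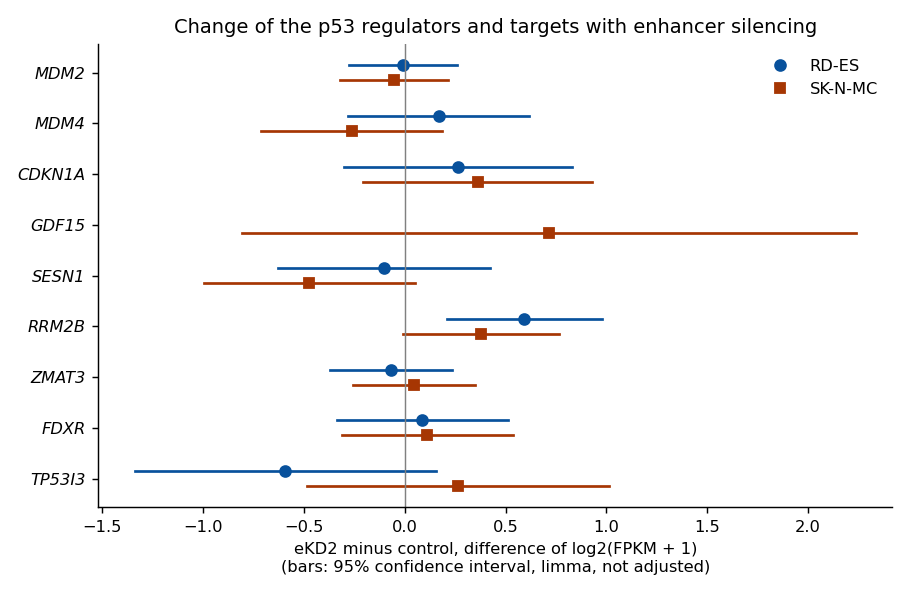
Difference of log2(FPKM + 1) between eKD2 and control (x axis) for the 9 genes (y axis), circles for RD-ES and squares for SK-N-MC, with 95% intervals from limma that are not adjusted for the number of genes. The RRM2B interval in RD-ES, from 0.21 to 0.98, is the one that leaves out 0, and GDF15 is not drawn for RD-ES because its control libraries were listed at 0.

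None of 9 listed genes that are relatives or upstream regulators of p53 was called in either line. Over all genes tested the share called was 0.343% for RD-ES, against 0.323% for SK-N-MC. With calls this rare, 0 of 9 does not set these genes apart from others.

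Of a wider list of 41 p53 pathway genes, 34 were tested, and SFN, PLK2, TP53AIP1, GLS2, SPATA18, EDA2R and TRIM22 fell under the filter. In RD-ES 1 of 34 rose (0.264% of all genes did), 0 fell (0.0791%) and 33 did not pass the test. The 1 was SESN2, a sestrin like SESN1 that is known to be turned on by ATF4 as well as by p53. It was at 5.11 and 5.56 FPKM in the RD-ES control libraries and 26.9 and 28.3 in the eKD2 ones, and at 28.0 and 27.8 in the control and 15.7 and 17.8 in the eKD2 libraries of SK-N-MC. The RD-ES eKD2 libraries thus reached the level of SK-N-MC control, and those of SK-N-MC lay lower. The log2 difference was 2.17 ± 0.09 in RD-ES (adjusted p = 6.6e-04), and -0.71 ± 0.09 in SK-N-MC (adjusted p = 0.062), and the difference between the lines was -2.88 ± 0.13 (adjusted p = 0.0012). When RD-ES was fitted without SK-N-MC the adjusted p of SESN2 was 0.11.

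In SK-N-MC 0 of 34 were called (0.323% of all genes were), and 7 of 34 had an unadjusted p under 0.05, where 13% of all genes did. Of these 1 was higher (5.71% of all genes) and 6 lower (7.29%). In RD-ES 5 of 34 did, 4 higher (8.49% of all genes) and 1 lower (3.79%). The median over the 34 was 0.04 in RD-ES, with -0.08 in SK-N-MC, beside 0.03 and -0.005 for all genes. By role, SESN2 was the call in metabolism and autophagy, where 4 genes were tested. There were 0 calls in either line among 4 feedback regulators, 3 cell cycle arrest genes, 12 apoptosis genes, 3 DNA repair genes and 8 other targets. GADD45A, a growth arrest gene that the integrated stress response also induces, was at 15.4 and 14.9 FPKM in the RD-ES control libraries and 27.4 and 22.0 in the eKD2 ones (log2 difference 0.66 ± 0.11, unadjusted p = 0.0010, adjusted p = 0.13). In SK-N-MC it was between 10.8 and 11.5 in all 4 libraries.

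The SK-N-MC values of lowest p, after SESN2, were those of RPS27L and CYFIP2. RPS27L, a ribosomal protein-like p53 target, was at 56.7 and 55.7 FPKM in SK-N-MC control and 40.6 and 36.9 in SK-N-MC eKD2 (log2 difference -0.53 ± 0.07, adjusted p = 0.068). CYFIP2, which acts in actin regulation, was at 22.3 and 22.0 FPKM in control and 37.8 and 45.5 in eKD2 (0.88 ± 0.13, adjusted p = 0.079). These went in opposite directions.

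PPM1D, the phosphatase that shuts off p53 signalling, and PMAIP1, the BH3 protein NOXA, are named after their values were seen. PPM1D differed by 0.28 ± 0.09 in RD-ES, and by -0.30 ± 0.09 for SK-N-MC (adjusted p = 0.29 and 0.26). PMAIP1 differed by 0.39 ± 0.10 and -0.28 ± 0.10 (adjusted p = 0.24 and 0.34). The difference between the lines was -0.58 ± 0.12 for PPM1D and -0.67 ± 0.14 for PMAIP1 (adjusted p = 0.19 for both).

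Among 5 paralogues of the 9 genes 0 were called in either line (0.343% of all genes in RD-ES, 0.323% in SK-N-MC). RRM2, the ribonucleotide reductase subunit of dividing cells and the paralogue of RRM2B, was at 217 and 230 FPKM in the RD-ES control libraries and 254 and 218 in the eKD2 ones, and at 263 and 274 in the control and 202 and 208 in the eKD2 libraries of SK-N-MC. Its SK-N-MC eKD2 libraries were the lower ones (log2 difference -0.39 ± 0.08, adjusted p = 0.18), where those of RRM2B were the higher ones. CDKN1C, the p57 relative of p21, was at 0.378 and 0.119 FPKM in the RD-ES control libraries and 1.23 and 0.800 in the eKD2 ones (0.69 ± 0.17, adjusted p = 0.23). In SK-N-MC its eKD2 libraries were also the higher ones, at 9.79 and 8.70 against 6.85 and 6.94 (0.37 ± 0.17, limma adjusted p = 0.44).

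The integrated stress response, in which the factor ATF4 turns on amino acid and stress genes, was listed because SESN2, GDF15 and GADD45A are known targets of it as well. In RD-ES 8 of its 10 listed genes rose, where 0.264% of all genes did, and 2 did not pass the test. The list was chosen with earlier results of these data known, so this share is a description and no independent test. The transcription factor DDIT3 (CHOP) was at 40.4 and 43.1 FPKM in the RD-ES control libraries and 99.2 and 110 in the eKD2 ones. ATF3 was at 11.1 and 8.82 and then at 52.4 and 55.1, and CHAC1, which degrades glutathione, at 3.02 and 3.63 and then at 44.3 and 56.3. All eKD2 libraries of these 3 genes were well above the control ones, and the log2 differences were 1.31 ± 0.08, 2.33 ± 0.11 and 3.56 ± 0.15 (adjusted p = 0.0032, 0.0012 and 6.6e-04). TRIB3, ASNS, PSAT1, DDIT4 and PPP1R15A rose by 0.61 to 2.03 (adjusted p from 7.2e-04 to 0.030). When any 1 of the 8 libraries was left out PPP1R15A was no longer called (adjusted p from 0.064 to 0.15), and PSAT1 was not without SK-N-MC control replicate 1 or 2 (0.054 and 0.056). When RD-ES was fitted alone none of the 8 was called (adjusted p from 0.12 to 0.50). With replicate number as a block ATF3, TRIB3, ASNS, PSAT1 and PPP1R15A were not called (adjusted p = 0.060, 0.11, 0.11, 0.14 and 0.14).

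In SK-N-MC 0 of the 10 were called (0.323% of all genes were), and 6 of 10 had an unadjusted p under 0.05 (13%), with 2 of them higher (5.71% of all genes) and 4 lower (7.29%). DDIT3 was at 185 and 190 FPKM in SK-N-MC control and 139 and 150 in eKD2, ATF3 at 58.4 and 61.8 and then at 37.9 and 36.2, and CHAC1 at 96.9 and 107 and then at 50.0 and 57.1. The eKD2 libraries were the lower ones for all 3, as for SESN2 in that line. TRIB3 went the other way, from 73.7 and 77.5 FPKM in control to 121.9 and 132.5 in eKD2 (log2 difference 0.74 ± 0.10, limma adjusted p = 0.068). ASNS was also higher (0.32 ± 0.08, limma adjusted p = 0.21). By the sign of the difference, 4 of the 10 genes were higher in SK-N-MC and 6 lower. How far these genes move with SESN2, GDF15 or RRM2B was not tested.

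**Figure D3:**
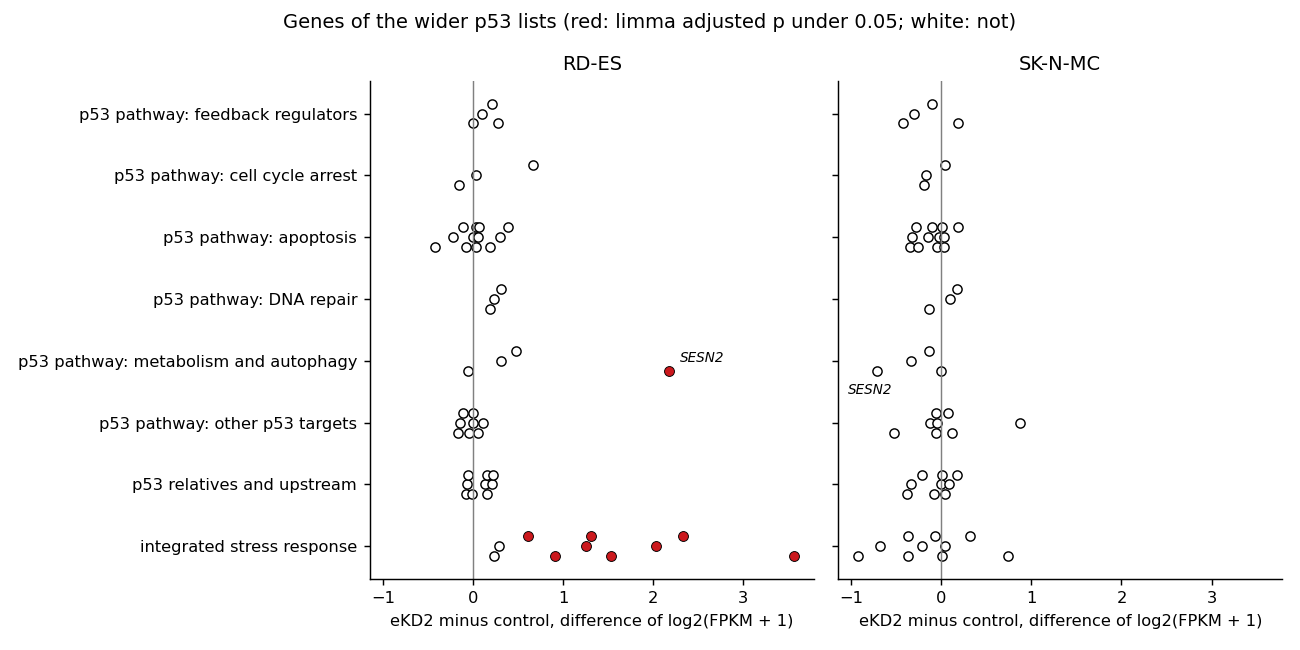
Difference of log2(FPKM + 1) between eKD2 and control (x axis) for the tested genes of the wider p53 pathway list by role, the relatives and upstream regulators of p53, and the integrated stress response (y axis), for RD-ES on the left and SK-N-MC on the right, 1 point a gene. In RD-ES the genes with an adjusted p under 0.05 (red) are SESN2 and 8 of the 10 integrated stress response genes, and in SK-N-MC there are 0.

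The lines were then compared without silencing, in their control cells, where the line and all that goes with its culture and libraries cannot be told apart. Of the 9 genes 4 were called, where 57.8% of all genes tested were: RRM2B and ZMAT3 were higher in SK-N-MC (31.4% of all genes), and MDM2 and TP53I3 were lower (26.4%). The libraries of the lines did not overlap for 7 of 9 genes, as for 79.8% of all genes. The 9 genes thus differed between the lines about as often as other genes did. Scaling the libraries to 1 median moved the median difference of all genes by -0.11, which bears on the small differences below.

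RRM2B was at a mean of 18.5 ± 1.1 FPKM (SD, n = 2) in RD-ES control and 40.9 ± 1.6 in SK-N-MC control, a log2 difference of 1.10 ± 0.16 (adjusted p = 0.0017). ZMAT3 was at 2.94 ± 0.40 and 4.98 ± 0.31 (0.61 ± 0.12, adjusted p = 0.0069). Both kept their call in every alternative that tested them. MDM2 was at 149 ± 6.5 in RD-ES, against 107 ± 0.55 in SK-N-MC (log2 difference -0.46 ± 0.11, adjusted p = 0.012), and it was not called without RD-ES control replicate 1, SK-N-MC control replicate 1 or SK-N-MC control replicate 2 (adjusted p = 0.068, 0.057 and 0.061). TP53I3 was at 4.94 ± 0.37 and 1.88 ± 0.52 (-1.06 ± 0.31, adjusted p = 0.026), and leaving out any 1 of the 4 control libraries gave an adjusted p from 0.058 to 0.13. FAM228B, which overlaps it, was the higher one in SK-N-MC, at 15.7 and 11.5 FPKM against 2.72 and 2.82.

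The other 5 genes did not pass. FDXR was lower in both SK-N-MC control libraries (log2 difference -0.44 ± 0.17, adjusted p = 0.071), and it was called with median scaling (-0.57, adjusted p = 0.027) and with quantile normalization (-0.61, adjusted p = 0.022). SESN1 was at the higher level in both SK-N-MC libraries (0.49 ± 0.21, adjusted p = 0.096), with a call when the control libraries were fitted alone (adjusted p = 0.042). GDF15 had values of 0.969 and 0.726 FPKM in SK-N-MC against 0 in RD-ES (adjusted p = 0.27). When the control libraries were fitted alone, without the scattered RD-ES eKD2 pair, the limma adjusted p was 0.0057. Both RD-ES control libraries were listed at 0, so that pair gave this fit no spread, and its p-value rests on values near the floor. MDM4 differed by 0.13 ± 0.18 and by -0.01 with median scaling, and CDKN1A by -0.06 ± 0.23.

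**Figure D4:**
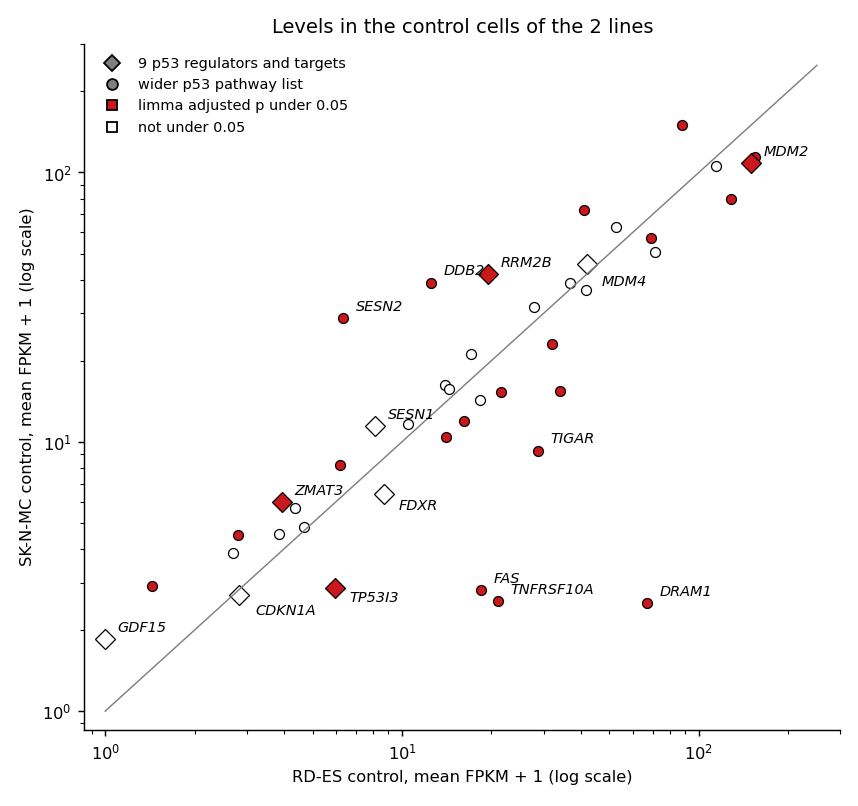
Mean FPKM + 1 in SK-N-MC control (y axis) against RD-ES control (x axis), both on log scales, for the 9 genes (diamonds) and the tested genes of the wider p53 pathway list (circles), with a line at equal levels and red for a limma adjusted p under 0.05. RRM2B and ZMAT3 are above the line and MDM2 and TP53I3 below it, and DRAM1, TNFRSF10A and FAS lie farthest below.

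Among the 34 tested genes of the wider p53 pathway list, 19 were called between the control lines (57.8% of all genes), 7 higher in SK-N-MC and 12 lower. The largest differences were of DRAM1, an autophagy gene, at 65.8 ± 0.63 FPKM in RD-ES against 1.52 ± 0.05 in SK-N-MC (log2 difference -4.73 ± 0.09), and of the death receptors TNFRSF10A, at 20.6 and 19.5 against 1.56 ± 0.02 (-3.04 ± 0.12), and FAS, at 17.5 ± 0.78 and 1.81 ± 0.23 (-2.72 ± 0.11). FAS shares 380 exon bases with ACTA2 on the opposite strand, which was at 17.5 and 22.7 FPKM in RD-ES control and 1.74 and 1.19 in SK-N-MC control. TNFRSF10A shares 266 with AC100861.1, at 4.95 and 5.57 and at 0.752 and 0.929. TIGAR, a regulator of glycolysis, was also lower in SK-N-MC (-1.64 ± 0.15), while SESN2 (2.19 ± 0.09) and the DNA damage sensor DDB2 (1.61 ± 0.21) were higher. All 6 had an adjusted p of 0.0012 or less and were called in every alternative.

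Of the 9 relatives and upstream regulators of p53, 4 were higher in SK-N-MC control (TP63, CDKN2A, USP7 and CHEK2) and 2 lower (TP73 and HIPK2), named after their values were seen. This is 66.7% of them, beside 57.8% of all genes (31.4% higher and 26.4% lower). CDKN2A, whose ARF product blocks MDM2, was at 33.4 FPKM in RD-ES against 73.3 in SK-N-MC (1.15 ± 0.21, adjusted p = 0.0047). TP73, a p53 relative, was at 4.77 and 0.214 (-2.25 ± 0.16, adjusted p = 1.2e-04).

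The genes whose log2(FPKM + 1) was most like each of the 3 with the widest range of group means were found over the 8 libraries among 14380 genes of at least 200 bases, as a description. For RRM2B they were OTUD1, GMDS-AS1 and RSAD2, with Pearson r from 0.989 to 0.995. For TP53I3 they were PLOD3, FTH1P8 and EMP2 (0.959 to 0.977), and for GDF15 they were RPLP0P6, RICTOR and PIGB (0.937 to 0.943). RPLP0P6 and FTH1P8 are pseudogenes whose reads may be those of their parent genes, and the 8 points share the difference between the lines.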

How the data were processed

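Single-end RNA-seq of poly-A RNA (TruSeq v2, which does not keep the strand) was measured in 8 libraries, 2 in each of 4 groups. The authors aligned reads to GRCh37 (release 27) with STAR, and deposited FPKM values per gene and library, computed with cufflinks and cuffnorm, which also scales libraries to each other. The counts they tested with DESeq2 were not used here. The deposited FPKM of 15175 of 60332 genes (mean of at least 1 FPKM) were compared as log2(FPKM + 1), which understates the change of low genes, with limma 3.58.1 in R 4.3.3 (lmFit, eBayes with trend, 4 groups in 1 fit, Benjamini-Hochberg adjustment over all genes tested, calls at an adjusted p under 0.05). SEs and 95% intervals are from this model and are not adjusted. The scripts were tested on simulated data. Overlaps and matches to the response element were read from the GRCh37 genome and GENCODE v44lift37, in which 59138 genes matched by ID.

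The 9 genes and all lists were chosen with earlier results of these data known. Named beside the 9 are listed genes called in a contrast of eKD2 cells, then the 14 of lowest unadjusted p among those under 0.05 in either line, the 6 p53 pathway genes that differ most between control lines, LOXHD1, and the genes most like the 3 of widest range. PPM1D, PMAIP1 and the relatives and upstream regulators of p53 were named outside this rule, after their values were seen. Alternatives were the pseudocount, the filter, scaling, the model of the spread, short genes, each line alone, a replicate block and each library left out. PECAM1 was not analysed here, and 1 gene of the wider lists is not reported here.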

Additional observations from a re-analysis of the deposited data

Results flagged for a closer look

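The change with silencing differed between the lines, by the test of the difference itself (the SK-N-MC change less the RD-ES one, limma with adjustment over all genes tested), for SESN2 of the p53 pathway and 4 genes of the integrated stress response. The difference on the log2 scale was -2.88 for SESN2 (adjusted p = 0.0012), -1.68 for DDIT3 (0.0048), -3.01 for ATF3 (0.0017), -4.48 for CHAC1 (0.0012) and -2.40 for DDIT4 (0.0017). With the replicate block DDIT3 and ATF3 were no longer called (adjusted p = 0.058 and 0.074), while SESN2, CHAC1 and DDIT4 kept their calls in every alternative. Each was higher in both eKD2 libraries of RD-ES and lower in both of SK-N-MC. In RD-ES control each started lower than in SK-N-MC control, by 2.19 for SESN2 and by 2.14 to 4.58 for the others on the same scale. None of the 9 p53 regulators and targets was among them.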

How the results depend on the processing

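Of 614 alternative values for the 9 genes, 574 kept their direction and their side of the threshold, 8 lost a call, 9 gained one and 23 changed sign without a call. The number of the 9 called stayed at 0 in SK-N-MC and for the difference between the lines in every alternative. In RD-ES it ranged from 0 to 1 with a library left out, the 1 being GDF15 without RD-ES eKD2 replicate 2. Between the control lines it was 4, 2 with a mean of at least 5 FPKM (where fewer of the 9 are tested), 6 with the control libraries fitted alone, and 2 to 5 with a library left out.

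Of the wider p53 pathway list, the 1 call in RD-ES became 0 with each line alone, and the 0 calls in SK-N-MC became 1 without the filter (RPS27L) and 1 with a mean of at least 5 FPKM or with median scaling (SESN2, adjusted p = 0.042 and 0.044). Over all genes, the 52 calls in RD-ES became 79 without a filter and 1 with the line alone, and 27 to 71 with a library left out. The 49 calls in SK-N-MC became 118, 13 and 12 to 76 in the same order, and 31 without genes under 200 bases. The 37 calls for the difference became 66 without a filter, 24 with at least 5 FPKM, 18 without short genes and 54 to 81 with a library left out.

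Replicate numbers were used as a replicate block within each line, although deviations of same-numbered libraries correlated at only 0.056 for RD-ES and 0.027 for SK-N-MC, so the libraries share only a number. With the block 11 genes were called in RD-ES, 5 in SK-N-MC and 7 for the difference, with 0 of the 9 genes in each and SESN2 still called in RD-ES and for the difference. Of the 8 integrated stress response genes called in RD-ES, DDIT3, CHAC1 and DDIT4 were still called.

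With median scaling the sign changed for MDM2 (0.037 for the difference between the lines) and for MDM4 (-0.015 between the control lines). With a library left out, the uncalled change in RD-ES spanned 0 for MDM2 (-0.052 to 0.036), MDM4 (-0.049 to 0.39), SESN1 (-0.29 to 0.086), ZMAT3 (-0.17 to 0.036), FDXR (-0.0043 to 0.18), CYFIP2 (-0.23 to 0.012) and RRM2 (-0.032 to 0.19). That in SK-N-MC did for MDM2 (-0.22 to 0.11), ZMAT3 (-0.0071 to 0.10), FDXR (-0.11 to 0.33), PSAT1 (-0.015 to 0.029) and PPP1R15A (-0.023 to 0.12), the difference between the lines for MDM2 (-0.21 to 0.12), CDKN1A (-0.13 to 0.32), GDF15 (-1.62 to 0.44) and FDXR (-0.19 to 0.24), and that between the control lines for MDM4 (-0.087 to 0.35) and CDKN1A (-0.27 to 0.16). Depth is known only roughly and limits the genes with low values, GDF15 and CDKN1A.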
